A study of Homo sapiens with 4 samples.

Results

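Transcripts of the BCL2 family, the caspases and the inhibitors of apoptosis were followed under 4 drug conditions in A549, a long-established cell line from a human adenocarcinoma of the lung. The 39 members were taken by name from a list of apoptosis genes and fall into 9 groups by role. Of these, 38 had a probe set that names them alone, and 33 passed the filter on dim signals, out of 18132 named and 10958 measured genes in all. The cells were untreated, or were exposed for 48 h to dihydroberberine at 25 μmol/L, to sunitinib at 2 μmol/L, or to both at these doses. Dihydroberberine is a hydrogenated derivative of berberine, an alkaloid of plants. Sunitinib blocks receptor tyrosine kinases, including those that bind VEGF and PDGF. The labels name no vehicle for the untreated cells. Each condition was hybridised to 1 array, so no difference has a replicate check, and no test was run.

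Apoptosis in epithelial cells runs along a mitochondrial and a receptor route. BCL2, BCL2L1 (BCL-xL), BCL2L2 (BCL-w), BCL2A1 and MCL1 hold BAX and BAK1 in check, and BH3-only proteins such as PMAIP1 (NOXA) and BBC3 (PUMA) relieve that hold, after which cytochrome c leaves the mitochondrion and meets APAF1 and caspase 9. Death receptors such as FAS and TNFRSF10B (DR5) instead recruit FADD and caspase 8, a step that CFLAR (c-FLIP) blocks, and IAP proteins restrain caspases or tag their regulators with ubiquitin. MCL1 and CFLAR are short-lived proteins, and for many members activity is set by cleavage or binding, which a transcript level does not show. The array reads the transcript near its 3′ end and does not separate splice forms such as the long and short forms of BCL2L1 or MCL1.

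Values are log2 signals, and a difference is that between the log2 signals of 2 arrays. Levels of different genes are not compared, since each probe set has its own scale. Members count as different from 1.5-fold on, a log2 difference of 0.585, beside the percentage of all 10958 measured genes that passed the same size in the same direction. Every drug gives 2 such differences that share no array, one without the second drug (drug minus untreated) and one beside it (combination minus second drug). The other yardstick is the agreement of the probe sets of a gene on the same arrays, whose median SD over the 27 members with at least 2 probe sets above the floor was 0.179 on the log2 scale for dihydroberberine against untreated and 0.153 for sunitinib against untreated. That spread does not separate probe behaviour from differences between transcript forms, and says nothing of variation between cultures.

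Of the 33 measured members, 13 passed 1.5-fold in at least 1 of the 5 comparisons and 20 passed in none, while 3381 of all 10958 measured genes passed in at least 1. With dihydroberberine alone 4 members were higher than untreated, MCL1, BIRC2, CASP4 and CFLAR, against 4.86% of all genes, and 4 were lower, CASP2, BCL2, XIAP and BIRC5, against 12.6%. In the combination against sunitinib, MCL1, BIRC2 and BCL2L1 were higher (3 members, 3.58% of all genes) and BIRC5 was lower (1 member, 1.47%). With sunitinib alone FAS was the only member past this size upward (1 member, 1.61% of all genes), and 0 members passed it downward (3.78%). In the combination against dihydroberberine, XIAP, BCL2, FAS and TNFRSF10B were higher (4 members, 10.3% of all genes) and 0 were lower (2.75%). The combination differed from untreated in 8 members, with MCL1, BIRC2, FAS, CASP4 and PMAIP1 higher (5 members, 6.85% of all genes) and BIRC5, CASP9 and CASP2 lower (3 members, 7.24%). The 4 higher members of 33 with dihydroberberine are 12.1%, and the 5 higher in the combination are 15.2%, above the percentage of all genes in the same comparisons, whereas the 12.1% that were lower with dihydroberberine lie beside 12.6%. With the mean of probe sets 2 of 31 members were higher with dihydroberberine (3.82% of all genes) and 6 in the combination (4.79%). At 2-fold these were 1 and 3 of 33 (1.05% and 1.16%). Members and fold were chosen with earlier results of these data known, so these percentages only describe the members. The median log2 difference of the members was -0.07, -0.09 and 0.05 with dihydroberberine, with sunitinib and with both, each against untreated, beside -0.03, -0.04 and -0.02 over all measured genes.

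**Figure D1:**
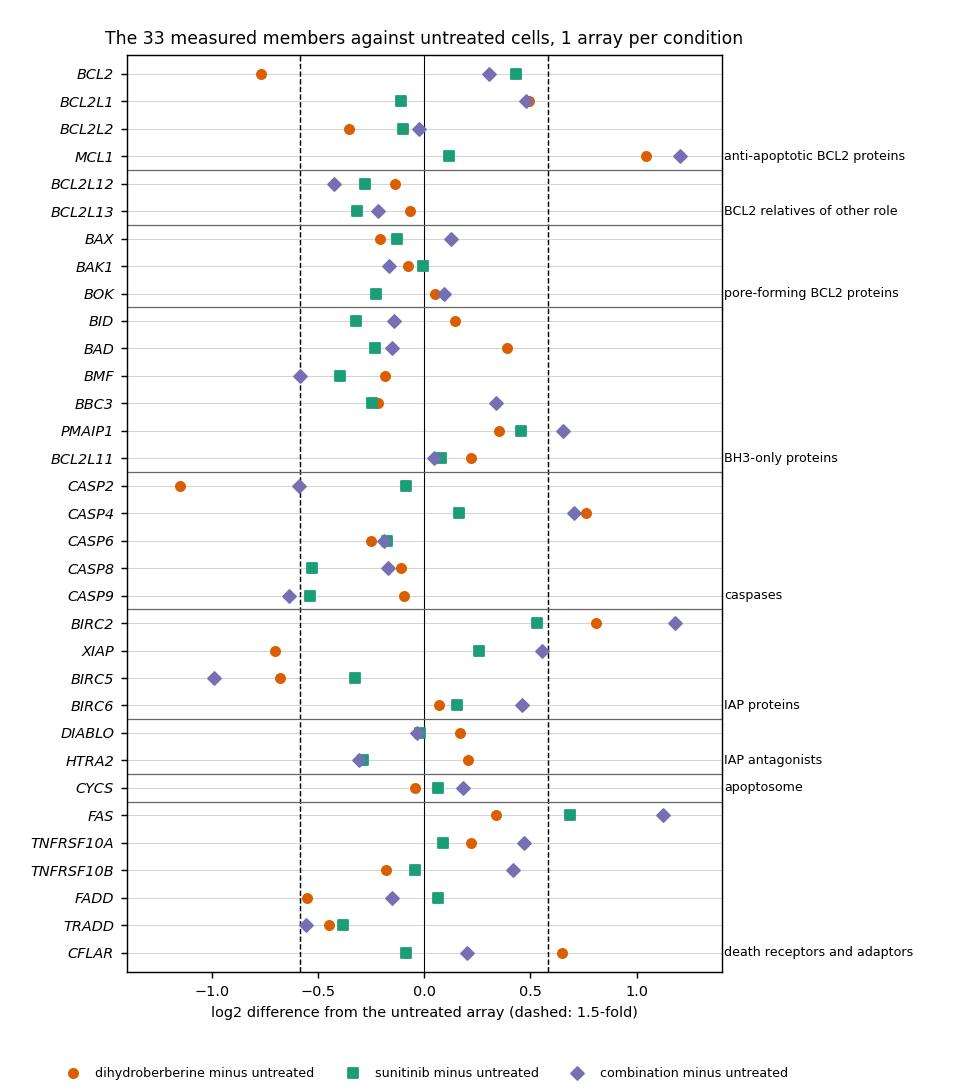
Log2 difference from the untreated array (horizontal axis) of the 33 measured members (vertical axis, grouped by role), with circles for dihydroberberine, squares for sunitinib and diamonds for the combination, 1 array each, and dashed lines at 1.5-fold. MCL1, BIRC2 and CASP4 lie to the right of the upper line with dihydroberberine and with both drugs. BIRC5 and CASP2 lie to the left of the lower line in the same 2 conditions.

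Members that passed 1.5-fold in both pairs of arrays were few. MCL1 and BIRC2 were higher with dihydroberberine in both (2 members, 1.58% of all genes), and BIRC5 was lower in both (1 member, 0.931%). FAS was higher with sunitinib in both pairs (1 member, 0.493% of all genes), and 0 members were lower in both (1.05%).

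**Figure D2:**
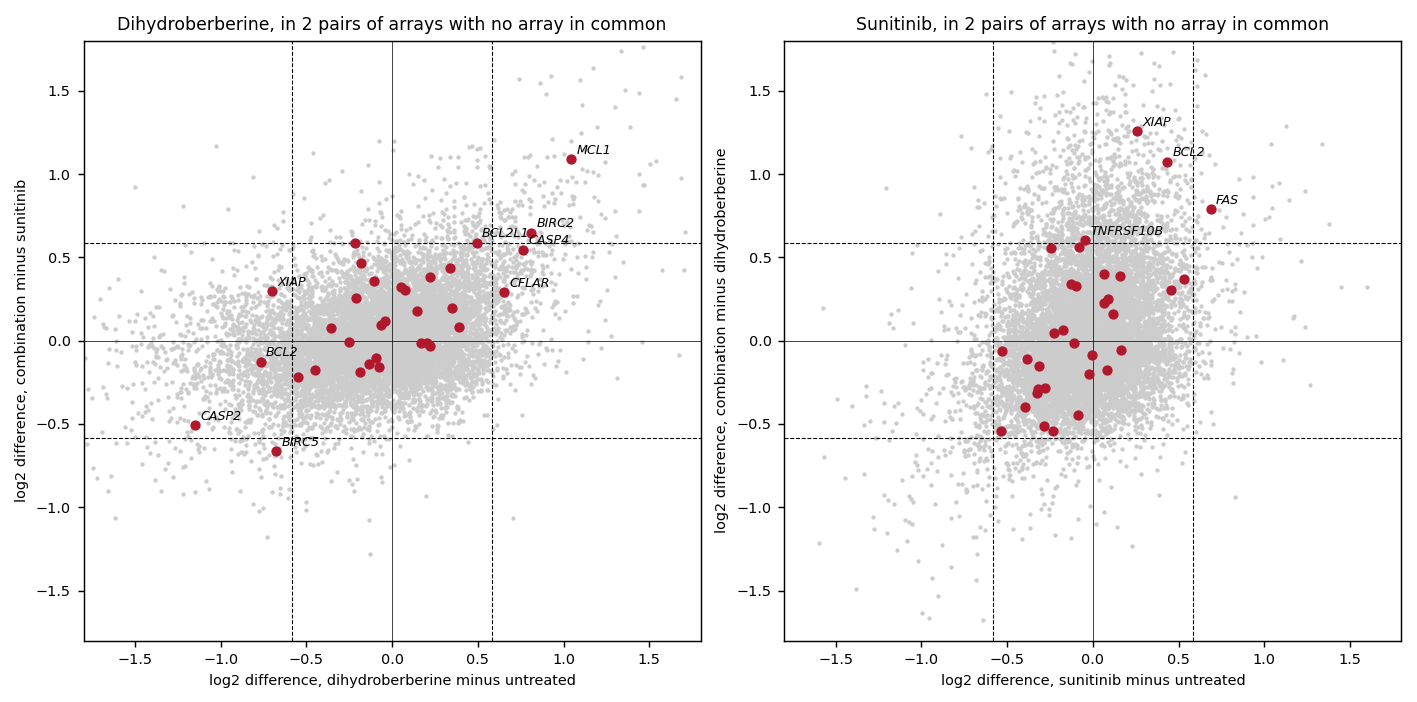
Log2 difference of drug minus untreated (horizontal axis) and of combination minus the second drug (vertical axis), for dihydroberberine (left) and sunitinib (right), with members in red, all measured genes in grey and dashed lines at 1.5-fold; points beyond the axes are not drawn. MCL1 and BIRC2 sit in the upper right corner and BIRC5 in the lower left corner on the left, and FAS sits in the upper right corner on the right.

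Among the anti-apoptotic BCL2 proteins, MCL1 was higher wherever dihydroberberine was present. Its log2 signal was 12.05 untreated, 13.09 with dihydroberberine, 12.16 with sunitinib and 13.25 with both. The arrays with dihydroberberine were the high ones, and the difference was 1.05 without sunitinib (2.06-fold) and 1.09 with it (2.13-fold). Sunitinib against untreated gave 0.12. All 6 probe sets of MCL1 were higher with dihydroberberine, with differences from 0.49 to 1.31, and all 6 were higher in the combination against sunitinib, with differences from 0.03 to 1.25. The MCL1 probe sets thus shared a sign but not a size, and 2 of the 6 gave only 0.03 and 0.25 beside sunitinib.

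BCL2L1, which encodes BCL-xL, was also higher on both arrays with dihydroberberine, at a smaller size. It was at 8.84 untreated, 9.33 with dihydroberberine, 8.73 with sunitinib and 9.32 with both. The 2 arrays with the drug were again the high ones, at 1.41-fold alone and 1.503-fold in the combination against sunitinib, just inside the counted size. Its other probe set above the floor gave 0.74 and 0.39, and the second call was lost with the mean of probe sets (0.34), without probe sets marked as shared or cross-hybridising (0.39) and with quantile normalization (0.55).

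BCL2 went the other way, and on the dihydroberberine array alone. Its log2 signal was 8.10 untreated, 7.33 with dihydroberberine, 8.54 with sunitinib and 8.41 with both. The dihydroberberine array was the low one, 1.70-fold below untreated, while the combination was 1.24-fold above untreated. The probe sets of BCL2 did not agree: over the 4 above the floor the difference with dihydroberberine ran from -0.84 to 0.09, and their mean with the dimmer ones was -0.25. That mean also ended the call for the combination against dihydroberberine, where BCL2 was 2.11-fold higher (0.31 as a mean). BCL2L2, another guardian of the mitochondrion, was at 10.06, 9.70, 9.96 and 10.04 on the untreated, dihydroberberine, sunitinib and combination arrays, and passed 1.5-fold in none of the comparisons. BCL2A1, a hematopoietic and NF-kB driven relative, stayed under the floor on all 4 arrays, between 3.89 and 4.22.

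The pore-forming proteins varied little. BAX was at 10.41, 10.20, 10.28 and 10.54 on the untreated, dihydroberberine, sunitinib and combination arrays, and its differences from untreated lay between -0.21 and 0.13. BOK was at 8.22, 8.27, 7.99 and 8.32, and BAK1 spanned 0.16 on the log2 scale over the 4 arrays. BCL2L12 was at 10.91, 10.77, 10.63 and 10.49 in the same order, 1.34-fold lower with both drugs. BCL2L13, an outer membrane protein that also serves mitophagy, was at 10.32, 10.26, 10.01 and 10.11, 1.16-fold lower with both. All 5 of these genes stayed within 1.5-fold in the 5 comparisons.

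Of the 7 BH3-only genes, 6 were measured and only PMAIP1 passed 1.5-fold, in the combination against untreated. PMAIP1 encodes NOXA, the BH3-only protein that binds MCL1. Its log2 signal was 9.15 untreated, 9.50 with dihydroberberine, 9.60 with sunitinib and 9.80 with both. Every drug array lay above the untreated one, by 1.28-fold, 1.37-fold and 1.57-fold, and both probe sets gave a positive difference in each of the 5 comparisons. PMAIP1 had its highest value on the combination array.

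BBC3, which encodes PUMA, was high on the combination array alone. It was at 9.57 untreated, 9.36 with dihydroberberine, 9.33 with sunitinib and 9.91 with both. The combination exceeded sunitinib by 0.58, just short of the counted size, and dihydroberberine by 0.56. The other probe set of BBC3 gave 0.14 and -0.34 for these differences, so the pattern rests on 1 probe set. BMF, a BH3-only protein linked to the cytoskeleton, was at 7.44, 7.25, 7.04 and 6.85 and was lowest with both drugs, at a difference of -0.58 that also fell just short. BAD, which growth factor kinases hold inactive, was 1.31-fold higher with dihydroberberine than untreated, and the combination lay 1.46-fold under dihydroberberine. BID, the substrate of caspase 8 that links the receptor route to mitochondria, spanned 0.46 over the 4 arrays, and BCL2L11 (BIM) spanned 0.22. BCL2L11 had 14 probe sets, of which 3 passed the floor, and those 3 disagreed in sign for dihydroberberine against untreated, from -0.49 to 0.22. BIK was under the floor on all 4 arrays.

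Among the caspases, CASP4 was higher and CASP2 lower with dihydroberberine. CASP4 encodes an inflammatory caspase that senses intracellular lipopolysaccharide. Its log2 signal was 10.66 untreated, 11.42 with dihydroberberine, 10.82 with sunitinib and 11.37 with both. The 2 arrays with dihydroberberine stood above the other 2, by 1.70-fold alone and by 1.46-fold in the combination against sunitinib. All 5 probe sets above the floor were higher in both pairs of arrays, from 0.56 to 0.94 and from 0.41 to 0.64. CASP1, another inflammatory caspase, had all of its 9 probe sets under the floor, and its level is not resolved here.

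CASP2, an initiator caspase that the PIDDosome activates, was at 11.04 untreated, 9.89 with dihydroberberine, 10.96 with sunitinib and 10.45 with both. The 2 arrays with dihydroberberine were the low ones, by 2.22-fold alone and by 1.42-fold when the drug was added to sunitinib. Its 3 probe sets gave differences from -1.15 to -0.85 and from -0.63 to -0.50, so all had the same sign. With both drugs CASP2 was 1.51-fold below untreated, a call lost with quantile normalization (-0.52).

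CASP9, the initiator of the apoptosome, followed sunitinib. It was at 9.48 untreated, 9.39 with dihydroberberine, 8.95 with sunitinib and 8.85 with both. The 2 arrays with sunitinib were lower than the other 2, by 1.45-fold alone and 1.46-fold against dihydroberberine, each under the counted size, while the combination lay 1.56-fold below untreated. The other CASP9 probe set gave -0.12 with sunitinib, -0.29 in the combination against dihydroberberine and -0.14 for the combination against untreated, and the mean of both for the last was -0.39, short of the counted size. CASP8, the initiator of the receptor route, was 10.25 untreated and 9.72 with sunitinib, 1.44-fold lower, and 10.08 with both, and its 6 probe sets above the floor ran from -0.53 to -0.08 for sunitinib against untreated. CASP6, an executioner, spanned 0.25 over the arrays, and CASP10 was under the floor on all 4.

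**Figure D3:**
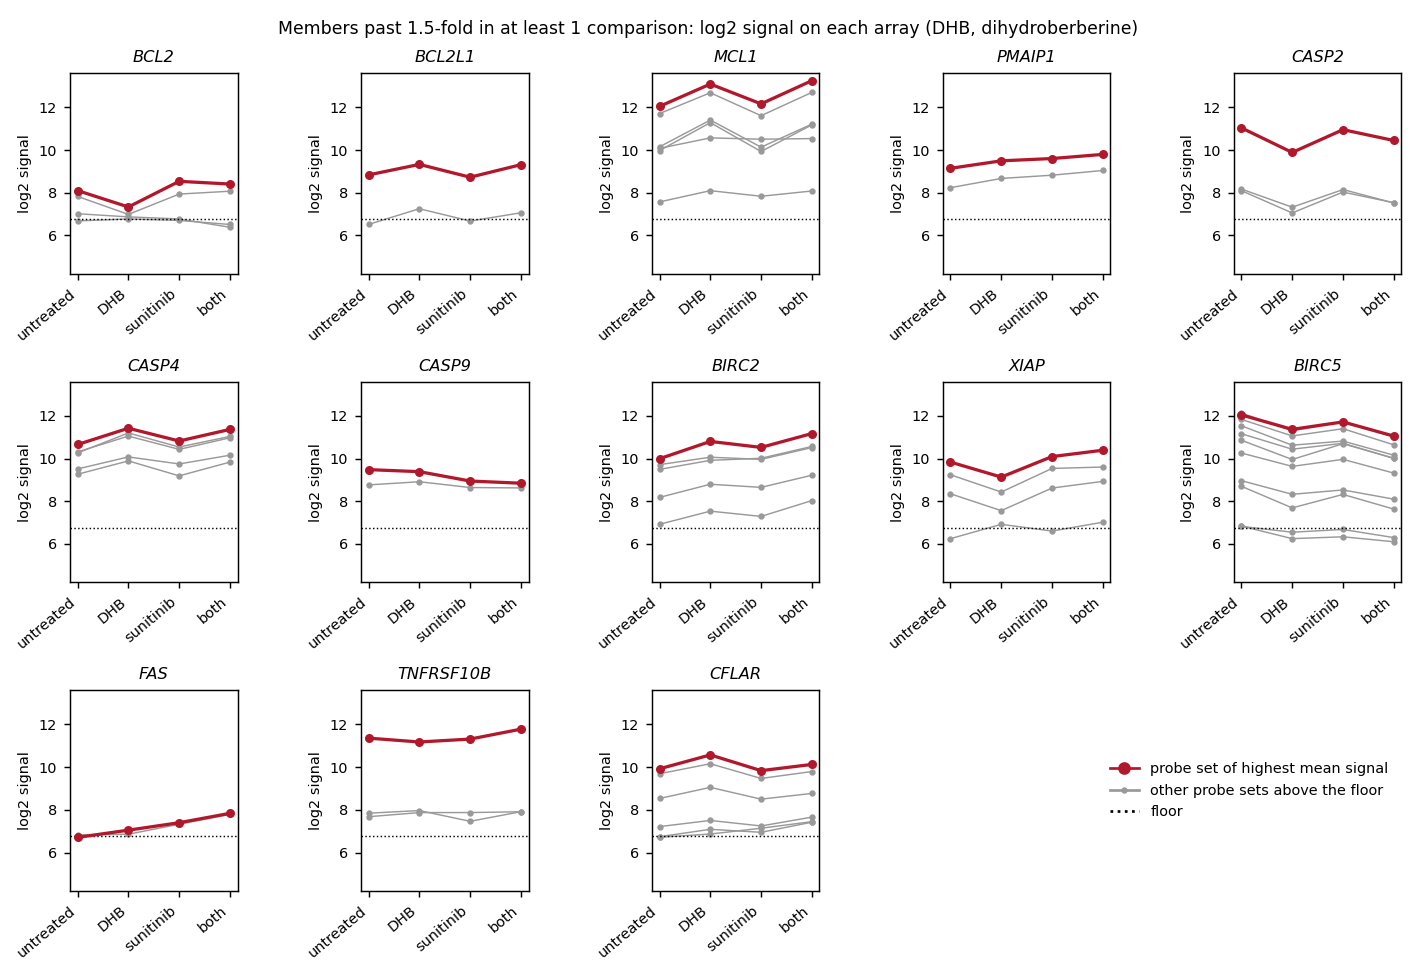
Log2 signal (vertical axis) on the untreated, dihydroberberine (DHB), sunitinib and combination arrays (horizontal axis) for the 13 members past 1.5-fold in at least 1 comparison, with the probe set of highest mean in red, the other probe sets above the floor in grey and the floor dotted. From untreated to dihydroberberine the probe sets of BIRC2, BIRC5, CASP2 and CASP4 shift the same way by different amounts, whereas those of XIAP and BCL2 differ in sign.

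The IAP genes took opposite directions. BIRC2 encodes cIAP1, a ubiquitin ligase of the TNF receptor complex. Its log2 signal was 9.99 untreated, 10.80 with dihydroberberine, 10.53 with sunitinib and 11.17 with both. Each drug array was above untreated and the combination was the highest, by 1.75-fold, 1.44-fold and 2.26-fold. All 5 probe sets of BIRC2 had a positive difference in all 5 comparisons, and for the combination against untreated they ran from 0.80 to 1.18. The call with dihydroberberine alone was lost with the mean of probe sets (0.56), and without shared probe sets both pairs fell short, at 0.35 and 0.55. BIRC3, which encodes the closely related cIAP2, was not analysed here.

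BIRC5 encodes survivin, an IAP family protein of the chromosomal passenger complex, whose transcript is made mainly in G2 and mitosis. It was at 12.05 untreated, 11.37 with dihydroberberine, 11.72 with sunitinib and 11.06 with both. Every drug array was below untreated and the combination was the lowest, by 1.6-fold, 1.25-fold and 1.99-fold. All 11 probe sets above the floor were lower in these 3 conditions, and for the combination they ran from -1.38 to -0.52. For the combination against sunitinib the mean of probe sets was -0.56, just short of the counted size. Of the other genes of the chromosomal passenger complex, AURKB, INCENP and CDCA8, 3 of 3 passed 1.5-fold downward with dihydroberberine (12.6% of all genes), 1 of 3 in the combination against sunitinib (1.47%) and 2 of 3 with both drugs against untreated (7.24%). In these comparisons AURKB was at -0.69, -0.32 and -0.95, INCENP at -0.76, -0.24 and -0.50, and CDCA8 at -0.88, -0.67 and -0.89. An array of bulk RNA cannot tell less BIRC5 per cell from fewer cells in the phase that makes it.

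XIAP, a direct inhibitor of caspases, had its low value on the dihydroberberine array. It was at 9.84 untreated, 9.13 with dihydroberberine, 10.10 with sunitinib and 10.39 with both. Dihydroberberine alone was 1.63-fold below untreated, while the combination was 1.23-fold above sunitinib and 2.39-fold above dihydroberberine. The probe sets parted here: 3 of the 4 above the floor were lower with dihydroberberine, down to -0.81, and the fourth, under the floor untreated, was higher by 0.67. The call was lost with the mean of probe sets (-0.20) and with quantile normalization (-0.57). In the combination against untreated all 4 were positive, from 0.36 to 0.77. BIRC6, a giant IAP, was 8.31 untreated and 8.77 with both, 1.38-fold higher, and passed 1.5-fold in none of the comparisons.

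No antagonist that IAP proteins bind passed the counted size. DIABLO (SMAC) was at 11.33, 11.50, 11.31 and 11.29 on the untreated, dihydroberberine, sunitinib and combination arrays. HTRA2, a mitochondrial serine protease, was at 10.22, 10.43, 9.94 and 9.92 in the same order, and all 4 of its probe sets were lower in the combination than with dihydroberberine, from -0.70 to -0.51. Without shared probe sets HTRA2 was 0.64 higher with dihydroberberine than untreated and passed, where the probe set of highest mean gave 0.21. CYCS, cytochrome c, spanned 0.22, and APAF1, its partner in the apoptosome, was under the floor on all 4 arrays, between 6.21 and 6.31.

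In the receptor route FAS, the receptor of FAS ligand, was higher with sunitinib in both pairs of arrays. Its log2 signal was 6.71 untreated, just under the floor of 6.75, then 7.05 with dihydroberberine, 7.40 with sunitinib and 7.84 with both. The 2 arrays with sunitinib were the high ones, at least 1.56-fold above untreated and 1.73-fold above dihydroberberine, and the combination was at least 2.12-fold above untreated. Both probe sets were positive in all 5 comparisons, and gave 0.50 and 0.69 for sunitinib against untreated. Without shared probe sets the FAS difference with sunitinib was 0.50 and did not pass. FAS is dim on these arrays, and the background probe sets of high G and C content differed between the arrays as well, at 6.70, 7.15, 6.99 and 6.95; their part in the FAS values was not tested.

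TNFRSF10B, the TRAIL receptor DR5, was at 11.36, 11.18, 11.31 and 11.78 on the untreated, dihydroberberine, sunitinib and combination arrays. Only the combination array stood out, 1.52-fold above dihydroberberine, 1.38-fold above sunitinib and 1.34-fold above untreated. Its 2 dimmer probe sets were also higher in the combination than untreated, by 0.07 and 0.23, but gave -0.05 and 0.04 against dihydroberberine. The mean of probe sets ended its call (0.20 against dihydroberberine), as did leaving out shared ones (0.04). TNFRSF10A, the TRAIL receptor DR4, had its highest value there too, with 9.12 untreated and 9.59 with both, 1.39-fold.

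CFLAR, the receptor route's inhibitor, was at 9.92 untreated, 10.57 with dihydroberberine, 9.84 with sunitinib and 10.13 with both. It was 1.57-fold higher with dihydroberberine and 1.22-fold higher in the combination than with sunitinib, and its 6 probe sets above the floor were positive in both pairs. The call was lost with the mean of probe sets (0.32) and without shared ones (0.47). FADD, the adaptor of FAS and the TRAIL receptors, was at 9.88, 9.32, 9.94 and 9.72, with its low value on the dihydroberberine array at 1.47-fold below untreated. TRADD, the adaptor of the TNF receptor, was lower on each drug array, by 1.36-fold, 1.30-fold and 1.47-fold with dihydroberberine, sunitinib and both. FADD and TRADD stayed under the counted size.

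The promoters of the members that passed in both pairs of arrays are shown because these genes passed the counted size without and beside the second drug. RefSeq's table for GRCh38.p14 held a window, from 250 bases before to 50 after the start, for 2 of these 4 genes, BIRC2 and FAS, and for 30 of the 39 members. BIRC2 has 2 listed starts and FAS 3, and the first of each is printed, 5′ to 3′ on the plus strand, BIRC2 at chr11:102346964-102347263 and FAS at chr10:88990548-88990847. Capitals mark matches to the motifs searched on both strands.
BIRC2: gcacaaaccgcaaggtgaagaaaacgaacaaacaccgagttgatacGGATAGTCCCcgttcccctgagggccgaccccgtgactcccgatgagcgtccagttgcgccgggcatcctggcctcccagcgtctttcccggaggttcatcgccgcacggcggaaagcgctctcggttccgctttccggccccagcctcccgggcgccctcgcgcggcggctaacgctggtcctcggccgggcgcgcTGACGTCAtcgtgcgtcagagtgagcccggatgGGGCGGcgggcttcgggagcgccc
FAS: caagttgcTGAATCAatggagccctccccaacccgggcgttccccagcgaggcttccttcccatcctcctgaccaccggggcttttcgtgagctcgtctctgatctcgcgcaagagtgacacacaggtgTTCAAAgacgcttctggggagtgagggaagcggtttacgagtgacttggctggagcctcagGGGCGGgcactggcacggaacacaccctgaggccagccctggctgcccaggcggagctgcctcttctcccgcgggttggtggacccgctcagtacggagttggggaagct
The motifs were CRE (TGACGTCA), AP-1 (TGANTCA), C/EBP-ATF (TGATGNAA), SP1 (GGGCGG), the CHR element (TTTGAA), the E-box (CACGTG) and NF-kB by its outer bases (GGG, any 4 bases, then TCC). BIRC2 held a CRE at bases 244 to 251 of the window, a motif found in 1.85% of all 35116 windows, with an NF-kB match at bases 47 to 56 and an SP1 match at bases 277 to 282. FAS held an AP-1 match at bases 9 to 15 (7.71% of all windows), a CHR match at bases 130 to 135 (15.2%) and an SP1 match at bases 191 to 196 (45% of all windows). No matches overlapped. Over the first window of the 30 members, SP1 was found in 22, NF-kB in 10 (22.6% of all windows), AP-1 and the E-box in 3 each (7.26% of all windows for the E-box), CHR in 2, and CRE and C/EBP-ATF in 1 each (3.62% of all windows for C/EBP-ATF). A match is a description of the letters, and no measurement here bears on whether a factor binds.

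The combination was also set against the sum of both single drugs on the log2 scale, a comparison added after the values were seen. MCL1 had 1.21 with both drugs beside a sum of 1.16, BIRC2 1.18 beside 1.34, FAS 1.13 beside 1.02, and BIRC5 -0.99 beside -1.0. These 4 genes were chosen because both differences of a drug passed in the same direction, which partly fixes how close they lie to the sum. XIAP, BBC3, TNFRSF10B, CASP2 and BCL2 lay above it by at least 1.5-fold (5 members, 12.2% of all genes), and 0 members lay below it (3.73%). The deviation was 1.0 for XIAP, 0.80 for BBC3, 0.65 for TNFRSF10B, and 0.64 for both CASP2 and BCL2. When a gene's probe sets were averaged, 0 members passed. The deviation takes the dihydroberberine array with a negative sign, and for XIAP, BCL2 and CASP2 that array held the lowest of the 4 values.

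**Figure D4:**
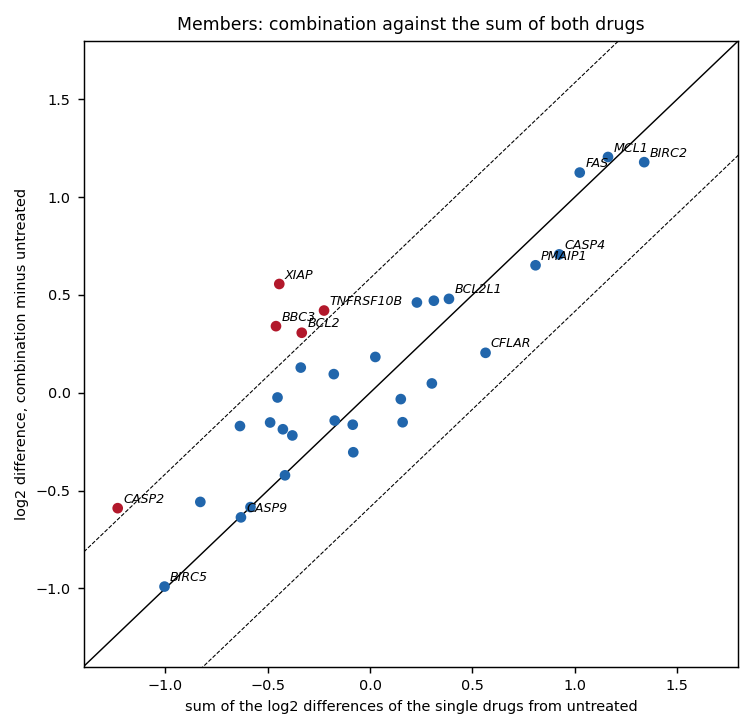
Log2 difference of the combination from untreated (vertical axis) against the sum of the differences of the 2 single drugs from untreated (horizontal axis) for the 33 measured members, with a solid line where both are equal, dashed lines 1.5-fold from it, and members past those lines in red. MCL1, FAS, BIRC2 and BIRC5 lie near the line, and the 5 red members lie above it.

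Other apoptosis genes outside the 39 were followed in lists. Of 16 measured regulators of the mitochondrial route, 1 was higher and 5 lower with dihydroberberine (4.86% and 12.6% of all genes), 0 were higher and 3 lower in the combination against sunitinib (3.58% and 1.47%), and 0 were higher and 4 lower in the combination against untreated (6.85% and 7.24%). The higher one was HRK, a BH3-only gene named after its values were seen, which was under the floor untreated and at least 1.14-fold higher. Of the 16, 3 were lower in both pairs (0.931% of all genes). They were BAG1, a BCL2-binding co-chaperone, NOL3 (ARC), which blocks caspase recruitment, and FAIM, an inhibitor of FAS-driven death. BAG1 was lower by 1.82-fold with dihydroberberine, by 1.61-fold when it was added to sunitinib, and by 2.27-fold with both drugs against untreated, and its 4 probe sets ran from -0.88 to -0.37, from -0.68 to -0.08 and from -1.19 to -0.16. NOL3 was 1.92-fold, 1.65-fold and 2.08-fold lower in these comparisons, on its only probe set. FAIM was at least 2.27-fold lower with dihydroberberine, whose array lay under the floor for it, and 1.69-fold lower when the drug was added to sunitinib. BNIP3, a hypoxia-induced mitophagy receptor, was 1.57-fold lower with both drugs than untreated.

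In a list of executioner caspases, nucleases and related genes, 5 were measured, DFFA, DFFB, ENDOG, AIFM1 and PARP1. Of these 0 were higher and 2 lower with both drugs (6.85% and 7.24% of all genes), PARP1 by 1.59-fold and ENDOG by 1.65-fold. Of 7 measured death ligands, decoys and signalling proteins, 1 was higher and 0 lower with both drugs (6.85% and 7.24% of all genes). This was MLKL, the pore of necroptosis, 1.85-fold higher on its single probe set. The ligands TNFSF10, FASLG and TNF were under the floor on all 4 arrays. TNFAIP3 (A20), a ubiquitin-editing enzyme of the TNF and NF-kB pathway, was lower with sunitinib in both pairs, by 1.55-fold and 1.57-fold. It was 1 of 3 measured genes in its list, beside 1.05% of all genes lower in both. Its other probe set gave -0.49 and -1.07 for these differences, the first short of the counted size. Of 9 measured transcription factors known to act on BH3-only or receptor genes, 2 were higher and 1 lower with dihydroberberine (4.86% and 12.6% of all genes). The higher were JUN and DDIT3 (CHOP), and the lower was FOXO1. JUN was 3.27-fold higher alone and 1.57-fold higher in the combination than with sunitinib. Its 4 probe sets ran from 0.81 to 1.71 and from 0.07 to 0.85 in these comparisons. DDIT3, a known inducer of TNFRSF10B, was at 1.24 alone and 0.12 in the combination against sunitinib. Its other probe set gave 1.26 and -0.10. With both drugs 0 of these 9 passed 1.5-fold against untreated in either direction (6.85% of all genes higher, 7.24% lower).

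The dihydroberberine array differed from the others in control signals. Its Alu control was 0.41 below untreated on the log2 scale and its 18S rRNA controls 0.63 below, beside 0.03 above and 0.21 below for the combination, and its ACTB control had a log2 difference of 0.63 between 3′ and 5′ probe sets where the other arrays had 0.82 to 0.91. These values move with BCL2, XIAP, CASP2, TNFRSF10B, FADD, BCL2L2, BAX, CASP6 and CYCS, which were lowest on that array, and their part in those results was not tested. The calls of BCL2, XIAP and TNFRSF10B all rest on that array. CASP2 also passed in the combination against untreated, which leaves that array out, and without shared probe sets in the combination against sunitinib (-0.63). Of 10 identity markers of A549 and lung epithelium, 8 were above the floor, with KRT8, KRT18, KRT19 and AKR1B10 between 13.39 and 14.67, while CDH1 and EPCAM were under it on all 4 arrays. KRT7 lay between 8.63 and 8.84, and ALDH1A1 between 11.10 and 11.86. Above the floor on an array were 2 of 5 markers of alveolar type II cells, 1 of 3 of endothelium and 0 of 4 of fibroblasts. Of 4 named leukocyte markers, PTPRC and CD3E were under the floor on all arrays while CD68 was above it on all 4 and CD14 was clearly above it untreated, at 8.82. Their summed signal was 9.67, 9.05, 8.28 and 8.04 on the log2 scale on the untreated, dihydroberberine, sunitinib and combination arrays. FAS, PMAIP1 and BIRC6 had the reverse order of arrays, and CASP9, BMF and BCL2L12 had the same order as the sum. The part of this sum in the values of these members was not tested.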

How the data were processed

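RNA of A549 cells from 4 conditions was hybridised to 1 array each. Per the labels' protocols it was extracted with TRIZOL, cleaned on a column with DNase, and labelled with biotin in a 3′ IVT reaction. The series text names an Agilent array, but the probe sets are Affymetrix ones and were treated as such. Deposited by the authors were log2 signals per probe set. Per the submitters' processing notes they used Affymetrix Expression Console; its version, the summarization and the normalization were not given in the sources used here. The log2 scale was read from the values (3.01 to 15.4).

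A platform table named 1 gene for 44988 of 49293 gene probe sets, several for 1832 and none for 2473; of those with 1 gene, 44961 matched RefSeq GRCh38.p14, which changed 0 names. Each gene took its probe set of highest mean over the 4 arrays. The floor was set at the 50th percentile over gene probe sets (6.75), and genes at or above it on at least 1 array were measured. Folds with 1 array under the floor are bounds. Differences were counted at 1.5-fold with pandas 2.3.3 and numpy 2.4.6 in Python 3.11.15, and the counting step was tested on simulated data. Groups came from the treatment labels. With 1 array per condition no test was run, and precision is limited by that number of arrays. Array medians lay between 6.73 and 6.76, and arrays correlated with r from 0.986 to 0.994 across gene probe sets.

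Members, lists, floor and fold were chosen with earlier results of these data known. All members were named; those past 1.5-fold in at least 1 comparison, or of largest difference in their group, are given by array. Other genes were named if past it in both pairs of a drug, or among the largest with both drugs; DDIT3, FOXO1 and the undetected ligands were named after their values were seen. Alternatives were the mean of all probe sets, no shared (_s, _x) probe sets, no floor, a 75th percentile floor, values raised to the floor, quantile normalization and 2-fold.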

Additional observations from a re-analysis of the deposited data

Results flagged for a closer look

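For 2 members the same drug gave differences of opposite sign in its 2 pairs of arrays, and at least 1 of them passed 1.5-fold. XIAP was lower with dihydroberberine alone, at a log2 difference of -0.70, and higher in the combination against sunitinib, at 0.30. TNFRSF10B differed by -0.044 with sunitinib alone and by 0.60 in the combination against dihydroberberine. With 1 array per condition neither difference between pairs was tested, and without shared probe sets the first value of TNFRSF10B was 0.19.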

How the results depend on the processing

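No paired analysis was possible because each condition had 1 array and the labels give no replicate numbers, and no array could be left out within a condition. Over 25 differences of members past 1.5-fold, 4 alternatives kept the sign in 100 of 100 values and the size in 82. The size was kept in 16 with the mean of probe sets and in 19 without shared ones. It was kept in 22 with quantile normalization and in 25 with values raised to the floor. Raising values to the floor cannot reverse a sign, and the mean includes the called probe set. Without shared ones, genes called on an unshared probe set kept that probe set. The agreement in sign was therefore partly fixed in advance. With the mean of all probe sets, 2 members were higher (MCL1, CASP4) and 2 lower (CASP2, BIRC5) with dihydroberberine, 0 were lower in the combination against sunitinib, 2 were higher in the combination against dihydroberberine, 1 (MCL1) was higher and 0 lower in both dihydroberberine pairs, and 0 lay above additivity. Without shared probe sets, 4 members were higher with dihydroberberine, of which 2 were shared with the 4 reported and HTRA2 and BCL2L1 replaced BIRC2 and CFLAR, 1 member was higher and 2 lower in the combination against sunitinib, 0 were higher with sunitinib, 1 (HTRA2) was lower in the combination against dihydroberberine, 1 was higher and 2 lower (BIRC5, CASP2) in both dihydroberberine pairs, 0 were higher in both sunitinib pairs, and 3 lay above additivity. At the 75th percentile floor FAS and BCL2 were not measured, so that 0 members were higher with sunitinib or in both its pairs and 2 were higher in the combination against dihydroberberine. With quantile normalization 2 members were higher with sunitinib (FAS, BIRC2), 1 (CASP9) was lower in the combination against dihydroberberine, and 2 lay above additivity. With no floor 1 member (CASP1) lay below additivity. At 2-fold, 1 member was higher (MCL1) and 1 lower (CASP2) with dihydroberberine, 1 was higher and 0 lower in the combination against sunitinib, 0 were higher with sunitinib, 2 were higher in the combination against dihydroberberine (XIAP, BCL2), 3 were higher (MCL1, BIRC2, FAS) and 0 lower in the combination against untreated, 1 was higher and 0 lower in both dihydroberberine pairs, 0 were higher in both sunitinib pairs, and 0 lay above additivity. With values raised to the floor all 16 counts stayed within 1.5 times. Signal near the floor limits FAS, BMF and the dimmer probe sets of BCL2 and XIAP. The cause of these changes was not tested.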
